A study of Homo sapiens with 12 samples.

Results

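The AP-1 transcription factors FOS, FOSB, FOSL1, FOSL2, JUN, JUNB, JUND and BATF were followed at the chromatin level by ATAC-seq, in which a transposase inserts sequencing adapters into accessible DNA. The 8 genes were taken as the FOS and JUN family by name, from 20037 protein-coding genes, and peaks within 20 kb of each gene's span were read. The cells were KYSE150 and KYSE510, established lines of human oesophageal squamous cell carcinoma grown in RPMI-1640 with serum. HCP5, a long non-coding RNA of the major histocompatibility region, had been silenced in 3 libraries of each line, and the other 3 were controls, which gives 12 libraries in 4 groups. The labels do not say how HCP5 was silenced or what the control received, and ATAC-seq does not measure the HCP5 transcript, so the silencing itself was not checked here. Nothing in the labels says that the 3 libraries of a group came from separate cultures, so p-values measure only the spread between these libraries.

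AP-1 is a dimer of basic leucine zipper proteins in which a FOS protein pairs with a JUN protein, while JUN proteins can also pair with each other. Growth factor and stress signals acting through MAP kinases switch FOS and JUN on within minutes as immediate early genes, and AP-1 then binds short palindromic sites in promoters and enhancers. FOSL1 and FOSL2 are FOS relatives prominent in squamous epithelium and carcinoma, JUNB and JUND are JUN relatives with weaker or opposing effects on growth, and BATF is a smaller partner of JUN proteins best known from lymphocytes.

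Each library was deposited as a list of peaks, and the height of a peak is the largest number of overlapping fragments at 1 position. Peaks of height 3 or more were used, and a gene or region without one is given the value 0, which means that no such peak was listed and not that the DNA was closed. Heights were not normalised between libraries, and the sequencing depth is unknown. The KYSE150 libraries held 52869 to 63295 peaks of that height and the KYSE510 libraries 104208 to 123109. Over all listed peaks the order was the reverse, 546453 to 629921 in KYSE150 and 115761 to 135841 in KYSE510, so the minimum kept 9.67 to 11.1% of KYSE150 peaks and 88.8 to 91.5% of KYSE510 peaks. A value of 0 in KYSE150 can therefore hide a listed peak of height 1 or 2. At an FDR of at most 0.05 there were 78240 to 97874 and 95658 to 113443 peaks. The most frequent local background of a peak was 0.08 to 0.11 height units for KYSE150 and 0.18 to 0.22 in KYSE510. Each height was therefore also placed as a percentile among the peaks of its own library. A difference between the lines cannot be told apart from a difference in depth or peak calling between the sets of libraries, and that holds for each comparison of lines given here. Of 11 squamous epithelial markers, 6 had a promoter peak in all 6 KYSE150 libraries and 8 in all 6 KYSE510 libraries, with KRT5, EPCAM, DSG3, DSP and SFN in both. TP63 had none in either line, and KRT14 and SOX2 had none in KYSE150. Promoters were read only at the listed start of a gene, or at the ends of its span, so other starts were not covered. The leucocyte marker PTPRC had no promoter peak in any library, while CSF1R had one in all 12.

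The promoters differed in the letters to which AP-1 and the related CREB and ATF factors bind. RefSeq sequences of the 250 bases before the transcription start (GRCh38.p14) were at hand for 7 of the 8 genes, all but FOSL1. Both strands were searched for TGANTCA, the core AP-1 site, for TGACNTCA, the cyclic AMP response form, and for TGACG, the shared part of the latter, which therefore overlaps TGACGTCA. FOS and JUN are shown as the founding members, JUND as the promoter with the unbroken TGACGTCA, and BATF as the promoter without any of these letters and with a peak in KYSE510 libraries alone. Matches to the 3 motifs are in capitals, and each sequence reads 5′ to 3′ on the strand of its gene.

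FOS, chr14:75278578-75278827, plus strand: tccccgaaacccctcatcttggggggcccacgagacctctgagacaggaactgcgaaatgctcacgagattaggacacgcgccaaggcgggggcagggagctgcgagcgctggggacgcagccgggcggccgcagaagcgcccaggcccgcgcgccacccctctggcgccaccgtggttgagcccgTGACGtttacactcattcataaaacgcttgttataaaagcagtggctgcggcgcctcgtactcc
JUN, chr1:58784048-58784297, minus strand: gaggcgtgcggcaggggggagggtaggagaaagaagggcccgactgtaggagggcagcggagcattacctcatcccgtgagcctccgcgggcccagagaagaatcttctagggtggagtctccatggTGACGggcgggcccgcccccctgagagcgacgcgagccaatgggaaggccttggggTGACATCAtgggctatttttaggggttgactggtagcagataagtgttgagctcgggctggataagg
JUND, chr19:18281623-18281872, minus strand: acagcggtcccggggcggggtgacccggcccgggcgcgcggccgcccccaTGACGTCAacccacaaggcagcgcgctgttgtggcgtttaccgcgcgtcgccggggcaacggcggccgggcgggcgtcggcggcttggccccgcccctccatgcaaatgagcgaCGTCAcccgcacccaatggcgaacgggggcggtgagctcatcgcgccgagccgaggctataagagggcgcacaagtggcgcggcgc
BATF, chr14:75522219-75522468, plus strand: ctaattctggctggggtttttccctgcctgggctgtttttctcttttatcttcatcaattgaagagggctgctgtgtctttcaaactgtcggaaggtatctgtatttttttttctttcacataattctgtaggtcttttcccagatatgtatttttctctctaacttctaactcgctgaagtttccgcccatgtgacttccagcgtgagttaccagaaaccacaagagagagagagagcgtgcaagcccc

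TGACG stood in 6 of the 7 promoters, all but BATF, against 25.6% of 15842 protein-coding promoters of the same length. FOS had it 64 to 60 bases before the start, FOSB 60 to 56 and FOSL2 66 to 62, with a further match farther upstream in FOSL2. TGACNTCA stood in JUN, as TGACATCA 67 to 60 bases before the start, and in JUND, as TGACGTCA 200 to 193 bases before it, against 6.50% of all promoters. TGANTCA stood in none of the 7 windows and in 5.04% of all promoters. FOS, FOSB, JUNB and JUND held TATAA within 34 bases of the start, a motif found anywhere in the window in 15.9% of promoters. BATF stood apart in base composition, with 43.2% G and C and 5 CpG dinucleotides, where the median promoter had 62.4% and 17 and the other 6 genes had 62 to 74.8% G and C.

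Among the 8 promoters, JUN had the tallest peak in every library. The promoter value of a gene was its tallest peak touching 1 kb either side of the start, or of either end of the span for FOSL1, whose start was not in the table. In KYSE150 the JUN promoter (region chr1:58783723-58784527, over the start and the printed bases) reached heights of 49, 36 and 42 in the control libraries and 49, 49 and 34 in the silenced ones. In KYSE510 it reached 68, 56 and 64 in control and 57, 58 and 57 in silenced libraries. These heights lay between the 98.8th and the 99.8th percentile of the peaks of their library, with no gap between control and silenced cells in either line. The local background under the JUN peak, 2.12 to 3.02 units in KYSE150 and 4 to 5.40 in KYSE510, was also the highest of the 8 in each library.

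FOSL2 and FOSL1, the FOS relatives, came next in the control libraries of both lines. FOSL2 promoter heights were 25, 18 and 24 in KYSE150 control, 16, 18 and 13 in KYSE150 silenced, 38, 30 and 24 in KYSE510 control and 27, 31 and 27 in KYSE510 silenced libraries. For FOSL1 they were 18, 12 and 19, then 18, 11 and 9, then 32, 21 and 19, then 25, 27 and 19 in the same order of groups. The 12, of KYSE150 control replicate 2, came from the lower end of the span, at the start of the neighbour CCDC85B. The upper-end region had a height of 11 in that library. The FOSL2 and FOSL1 ranges of percentile overlapped among control libraries in both lines, so their order is not beyond the spread.

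FOS, the immediate early gene that gave the family its name, had promoter heights of 10, 13 and 13 in KYSE150 control and 6, 3 and 6 in KYSE150 silenced libraries. Every silenced library was below every control library there. In KYSE510 its heights were 20, 14 and 14 in control and 20, 16 and 13 in silenced libraries, which overlap. JUND heights were 10, 8 and 10, then 12, 10 and 5 in KYSE150, and 18, 11 and 14, then 15, 13 and 12 in KYSE510, control before silenced. Those groups overlapped in both lines.

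JUNB, FOSB and BATF had promoter peaks in part of the libraries. JUNB heights were 15, 0 and 11 in KYSE150 control, 12, 9 and 7 in KYSE150 silenced, 19, 13 and 0 in KYSE510 control and 14, 14 and 12 in KYSE510 silenced libraries. The 15, the 19 and the 14 of KYSE510 silenced replicate 1 came from an upstream region inside the neighbour HOOK2, which had a peak in all 12 libraries. Its heights were 8 in KYSE150 control replicate 2 and 11 in KYSE510 control replicate 3, where its peak did not touch the window. The 0 values of JUNB therefore rest partly on the window edge. A second region touching the window, which gave the 11 and the 13, also had no listed peak in the libraries at 0. Its heights were 9, 0 and 11 in KYSE150 control and 12, 9 and 7 in KYSE150 silenced libraries. In KYSE510 they were 0, 13 and 0 in control and 8, 14 and 12 in silenced libraries. FOSB had a peak in 4 of 12 libraries, of height 5 in KYSE150 control replicate 2 and silenced replicate 2, and of 6 and 8 in KYSE510 silenced replicates 1 and 3. The accessible stretch of FOSB lay just inside the gene, in a region centred 1.31 kb after the start (chr19:45468889-45469713) that had a peak in all 12 libraries. Its heights there were 8, 12 and 10 in KYSE150 control, 9, 5 and 8 in KYSE150 silenced, 18, 21 and 14 in KYSE510 control and 18, 13 and 15 in KYSE510 silenced libraries. The 5 in KYSE150 silenced replicate 2 is the same peak as the FOSB promoter value of that library.

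BATF had no promoter peak in any of the 6 KYSE150 libraries. In KYSE510 its heights were 10, 14 and 9 in control and 6, 9 and 11 in silenced libraries, between the 56.8th and the 87.0th percentile. A promoter peak in all 6 libraries of a line was found for 5 of 8 members in KYSE150, where 41.3% of all genes had one, and for 6 of 8 in KYSE510, where 49.7% had one. In the control libraries of KYSE150 the order of mean percentile was JUN, FOSL2, FOSL1, FOS, JUND, JUNB, FOSB and BATF, and among neighbours only JUN and FOSL2 did not overlap. In KYSE510 it was JUN, FOSL2, FOSL1, FOS, JUND, BATF, JUNB and FOSB, where JUN and FOSL2, and FOSL1 and FOS, did not overlap.

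**Figure D1:**
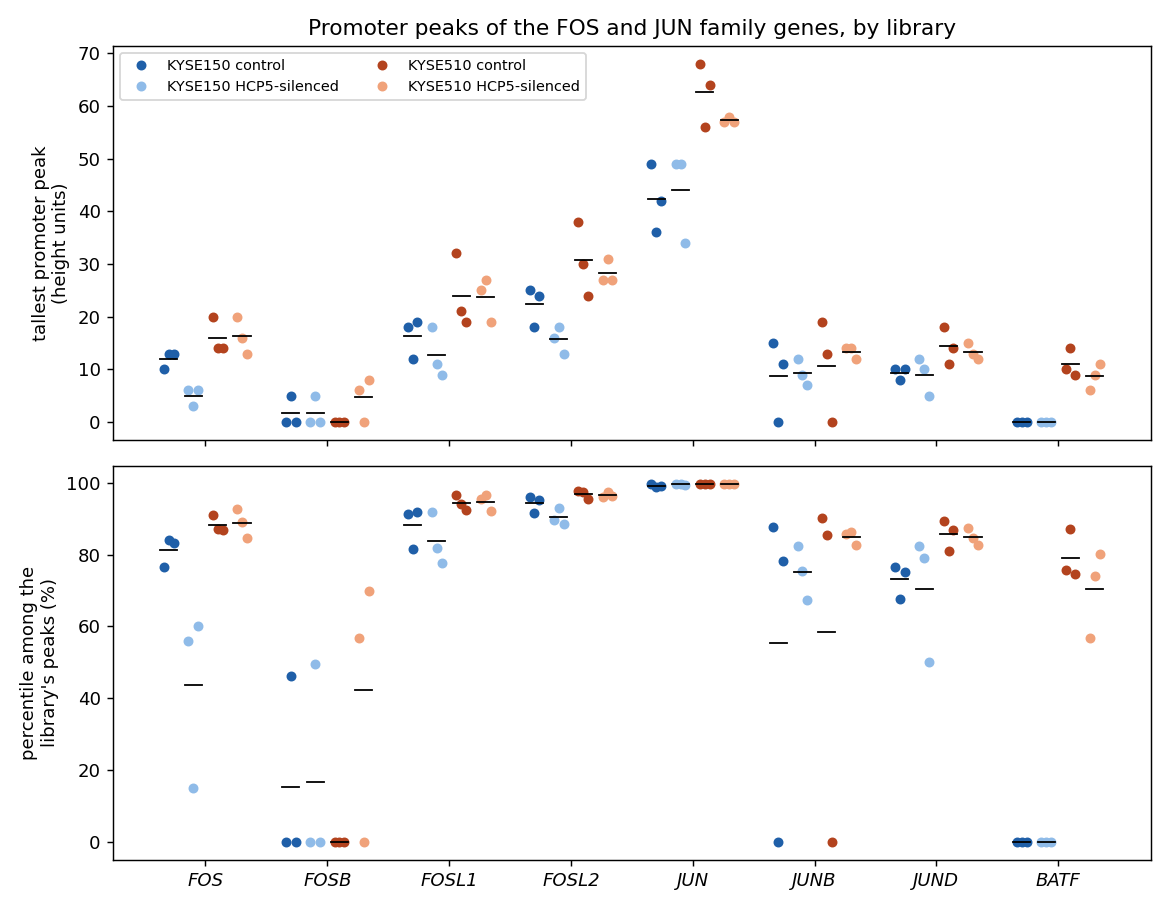
Tallest promoter peak of each gene in each of the 12 libraries, as height (upper panel) and as percentile among the library's peaks of height 3 or more (lower panel). Points are libraries, bars are group means of 3, and 0 means that no peak was listed; JUN lies at the 98.8th percentile or higher throughout, the KYSE150 silenced libraries lie below the controls at FOS, and BATF has values in KYSE510 alone.

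For each promoter present in all 12 libraries, the gene with the nearest pattern over the libraries was found among all protein-coding genes, as the root mean square difference in percentile points. The nearest were PJA2 for JUN (0.180 points), CHEK2 for FOSL2 (1.21), COX6A1 for FOSL1 (2.098), ATP6V0B for JUND (4.23) and STMP1 for FOS (7.10). FOS had the least close neighbour of the 5, on a scale that leaves tall peaks few points apart. How close the nearest gene is for promoters in general was not tested.

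The comparison of silenced with control cells asked whether accessibility at these genes differed after HCP5 silencing. At the promoters no member passed the test in either line. Ranks within each library were turned into normal scores, a scale on which 1 unit is 1 standard deviation of a standard normal distribution. The scores were compared by limma over all gene promoters with a peak in at least 3 of the 6 libraries. In KYSE150, 6 members could be tested and 0 of 10479 promoters were called at an adjusted p under 0.05, 0% in each direction. At an unadjusted p under 0.05, 2.54% were higher and 2.19% lower after silencing. FOS was the 1 member among them, lower by a score difference of -0.92 ± 0.30 (SE, 3 against 3 libraries), with an unadjusted limma p of 0.0110 and an adjusted p of 0.991. Its mean percentile was 81.2 ± 4.11 (SD, n = 3) in control and 43.6 ± 24.9 (SD, n = 3) in silenced libraries. FOS was also the 1 of 6 members whose groups did not overlap on the percentile scale, where 6.62% of all promoters were lower and 2.99% higher without overlap. The other 5 tested members had score differences of -0.26 to 0.52. The 0.52 was that of JUNB, whose control values included a 0 that rests partly on the window edge.

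The FOS value rested on a narrow stretch. With a window of 2 kb, which takes in a neighbouring region centred 1.61 kb before the start (chr14:75276901-75277541), the FOS difference in KYSE150 was -0.15. That neighbour had heights of 11, 13 and 10 in control and 13, 8 and 8 in silenced libraries of KYSE150, which overlap. The region over the FOS start itself (chr14:75278356-75279182) gave -0.90 ± 0.33 (SE) with an adjusted limma p of 0.680.

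In KYSE510, 7 members could be tested and none was called, beside 2 of 12313 promoters called lower (0.0162%) and 0% called higher. Score differences of the members ran from -0.22 to 0.64, with a smallest adjusted limma p of 0.935. The 0.64 was that of JUNB, whose control values there included a 0 that rests partly on the window edge. No member's groups were apart on the percentile scale, where 3.61% of all promoters were higher and 7.99% lower without overlap. FOS had a difference of 0.10 ± 0.21 (SE) there. The difference between the lines in the FOS response was tested itself and came to 0.81 ± 0.31 (SE), with an unadjusted limma p of 0.0185 and an adjusted p of 0.876, so it was not called (0.44 with the 2 kb window). No member was called in that test, where 0.00778% of 12850 promoters were lower and 0% higher.

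**Figure D2:**
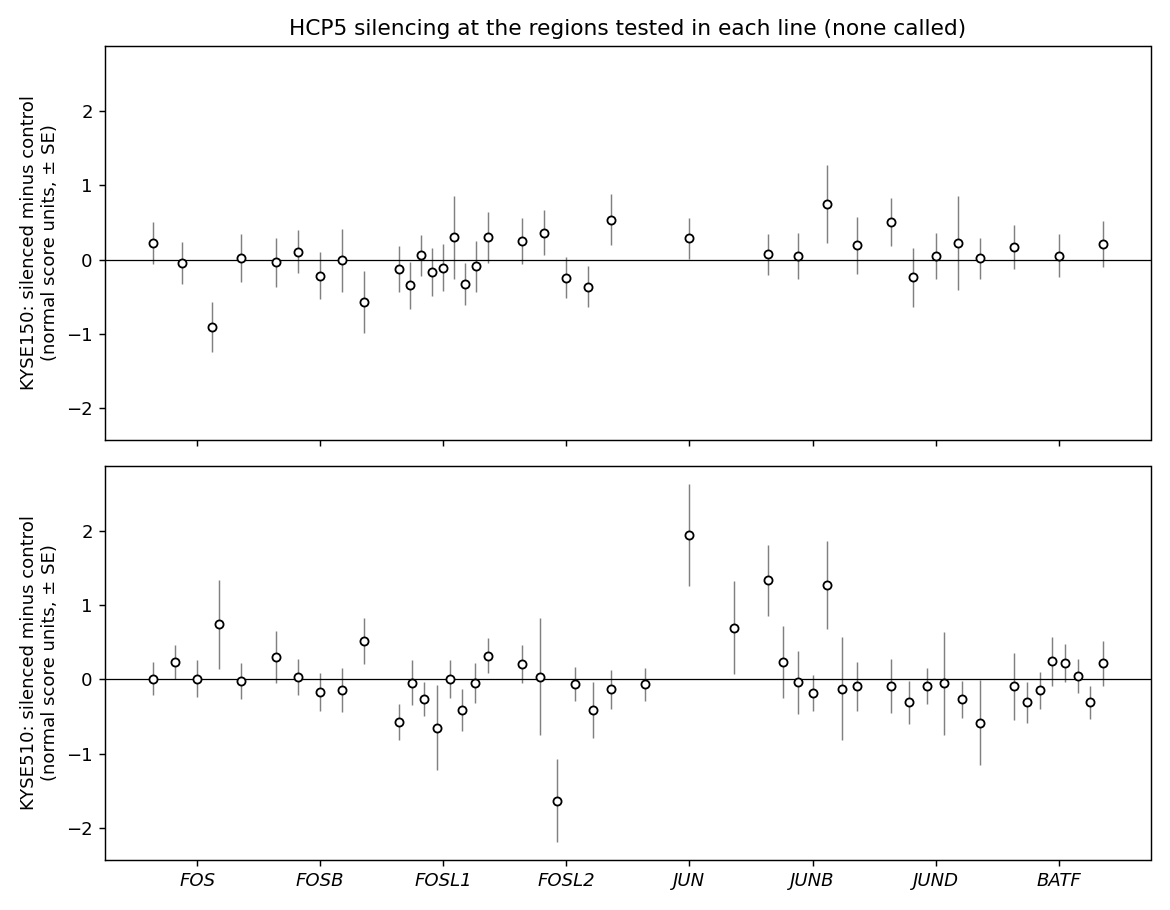
Silenced minus control difference in normal score (± SE, 3 against 3 libraries) at the 36 regions tested in KYSE150 (upper panel) and the 48 tested in KYSE510 (lower panel), by nearest member and in order along each gene. No point passed an adjusted limma p of 0.05; the value farthest below 0 in KYSE150 is the FOS start region at -0.90, and the one farthest above 0 in KYSE510 is the region 4.07 kb after the JUN start at 1.95.

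Around the genes, peaks of all libraries that overlapped by 1 bp or more were merged into 102 regions within 20 kb of the 8 spans, of 290571 in the series. Of these, 26 had a peak in all 12 libraries (25.5%, against 7.34% of all regions) and 52 in at least 3 (51.0%, against 38.6%). Those 52 were the regions compared, and 8 of them lay at the start of another gene, such as EFEMP2, FIBP, CCDC85B and DRAP1 near FOSL1. After silencing, none of 36 regions tested in KYSE150 was called, where 0% of 53600 were called in each direction. None of 48 tested in KYSE510 was called, where 0.0242% of 94991 were higher and 0.0126% lower. In simulated data these region fits missed nearly all planted changes, the large ones included, and the promoter fits missed the small ones, so the lack of a call does not show that values did not differ. No region near a member had a peak in all libraries of one treatment and none of the other within a line. Genome-wide, that held for 1.6% (control alone) and 0.61% (silenced alone) of tested regions in KYSE150, and for 0.856% and 1.72% in KYSE510.

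Without overlap between the groups, 0 regions were higher and 2 lower in KYSE150, the FOS start region and the region 16.5 kb into FOSL2, where 3.78% of all regions were higher and 7.14% lower. In KYSE510, 3 were higher (background 7%) and 4 lower (background 6.2%). The higher ones were the region 1.61 kb before FOS, the EFEMP2 start 26.8 kb from FOSL1 and the region 4.07 kb after the JUN start, and the lower ones lay near BATF, FOSL1 and FOSL2.

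The region beyond JUN (chr1:58779751-58780213, past the end of the gene) varied among KYSE510 control libraries. Its KYSE510 heights were 0, 20 and 0 in control libraries and 29, 21 and 22 in silenced ones, a score difference of 1.95 ± 0.69 (SE) with an adjusted limma p of 0.461. In KYSE150 it had a single peak, of height 9 in silenced replicate 3. A region 1.14 kb before the FOSL2 start (chr2:28391506-28391940) went the other way in KYSE510, with heights of 18, 12 and 12 in control and 0, 0 and 12 in silenced libraries and none in KYSE150. Its score difference in KYSE510 was -1.63 ± 0.55 (SE), adjusted limma p 0.450. As the 0 values mark unlisted peaks, both differences rest on whether a peak was called in 2 of the libraries of a group. The difference between lines in response at that FOSL2 region was called (-2.27, adjusted limma p 0.0143) with KYSE510 silenced replicate 3 left out. The region then had peaks in KYSE510 control libraries alone, so the sign was fixed by the filter and the value is a description. None of the 52 was called with all 12 libraries, where 0.0357% of 112117 regions were called in each direction.

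A region 16.1 kb before JUNB inside HOOK2 (chr19:12774837-12776028) had heights of 9, 0 and 0 in KYSE510 control and 12, 11 and 8 in silenced libraries, with an adjusted limma p of 0.462. The start of DRAP1 and C11orf68, 18.8 kb from FOSL1, had heights of 32, 22 and 27 in control and 15, 14 and 19 in silenced libraries of KYSE510, a score difference of -0.57 and an adjusted p of 0.560. These 4 regions and the FOS start were the ones with an unadjusted limma p under 0.05. That made 0 higher and 1 lower of 36 in KYSE150, where 2.93% of all regions were higher and 3.21% lower, and 2 higher and 2 lower of 48 in KYSE510, where 4.86% and 3.64% were.

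Between the control cells of both lines, the members differed most plainly at BATF and FOSL2. All 8 promoters entered the limma fit over the 12 libraries. BATF was the only member called, higher in KYSE510, where 10.6% of 12850 promoters were higher and 8.64% lower. It entered through its KYSE510 peaks alone, so the direction was fixed by the filter, and its difference of 1.24 score units describes a peak in all 6 KYSE510 and in no KYSE150 library. A window of 500 bp around the start left BATF without a promoter peak and the members without a call. The BATF peak lies upstream of the printed bases, in chr14:75521314-75521956. FOSB was at -0.76 ± 0.34 (SE), adjusted p 0.130, from 1 control library with a peak, and turned to 0.28 with a window of 2 kb that takes in its intragenic region. On the percentile scale, FOS, FOSL1, JUN, JUND and BATF were higher in KYSE510 without overlap and none lower, where 36.1% of all promoters were higher and 5.59% lower. The remaining 6 members of the limma test lay between -0.23 and 0.14.

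In the regions, 8 of 52 were called higher in KYSE510 (background 12.8%) and 3 lower (background 11%). BATF held 6 of the 8. Of the 8, 3 at BATF and 1 at FOSL2 had no peak in any KYSE150 library and entered the fit through KYSE510 alone, so their direction was fixed by the filter and their values are a description. One of the BATF regions lay inside the gene, 13.6 kb after the start (chr14:75535677-75536537). It had no peak in any KYSE150 library, heights of 32, 32 and 24 in KYSE510 control and 20, 28 and 29 in KYSE510 silenced libraries. The promoter region at 0.834 kb before the start and a region 44.1 kb after it likewise had peaks in all 6 KYSE510 and in no KYSE150 library. With a further intragenic BATF region 20.4 kb after the start, of heights 3 to 7 in KYSE510, these were the 4 regions of that kind near the members (3.92%, against 3.45% of all regions).

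A cluster past the end of BATF had peaks in all 12 libraries. At 32.1 kb after the start (chr14:75554204-75554952) heights were 4, 5 and 3 in KYSE150 control and 17, 17 and 22 in KYSE510 control libraries. At 37.6 kb (chr14:75559734-75560327) they were 8, 7 and 7 against 26, 25 and 20, and at 38.7 kb (chr14:75560909-75561332) 7, 5 and 10 against 34, 26 and 24. No KYSE150 height reached a KYSE510 height, and the score differences were 0.99, 0.76 and 0.96 with adjusted limma p of 0.00358, 0.0112 and 0.00313. On log2 heights less the library median all 3 turned negative (-0.42, -0.85 and -0.58), that at 37.6 kb past the threshold. On that scale the median is a 0 in every KYSE150 library and 2.32 to 2.58 in KYSE510, with 52.4 to 59.6% of the regions at 0 in a KYSE150 library and 24.2 to 30.3% in a KYSE510 library. Subtracting the median therefore lowers every KYSE510 region relative to KYSE150. With fold enrichment in place of height those at 37.6 and 38.7 kb were not called, and without the filter on presence that at 37.6 kb was not (adjusted p 0.0683).

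FOSL2 differed in both directions. A region 16.5 kb after its start, inside the gene (chr2:28408929-28409725), had heights of 22, 23 and 34 in KYSE150 control and 18, 18 and 14 in KYSE150 silenced libraries. In KYSE510 it had 4, 0 and 4 in control and 0, 0 and 4 in silenced libraries, so every KYSE150 library was above every KYSE510 library. The difference was -2.49 ± 0.30 (SE) score units with an adjusted limma p of 8.88e-05. It was the only one of the 52 regions lower in KYSE510 without overlap of the control libraries, where 6.15% of all regions were, and 21 of 52 were higher without overlap, where 31.2% were. Past the end of FOSL2, at 44.3 kb from the start (chr2:28436507-28437886), heights were 9, 7 and 4 in KYSE150 and 35, 29 and 28 in KYSE510 control libraries, 1.14 ± 0.24 (SE) with an adjusted p of 0.00373, and -0.31 on log2 heights less the median. The region 1.14 kb before the start was the FOSL2 region listed in KYSE510 alone, and its call was lost with fold enrichment (adjusted limma p 0.0718) and on log2 heights less the median (0.146).

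**Figure D3:**
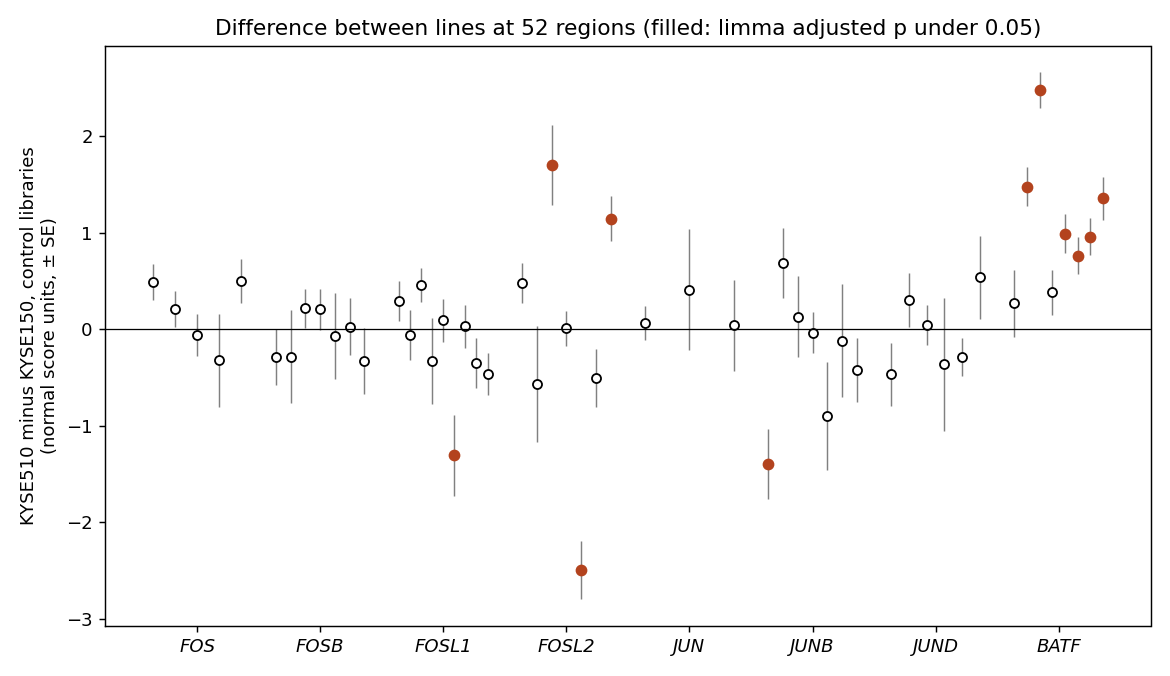
KYSE510 minus KYSE150 difference in normal score between control libraries (± SE, 3 against 3) at the 52 regions, by member and in order along each gene; filled points passed an adjusted limma p of 0.05. BATF has 6 filled points above 0, of which 3 had no KYSE150 peak, and FOSL2 has the lowest point at -2.49. On log2 heights less the library median, 3 of the BATF points (32.1, 37.6 and 38.7 kb) and the FOSL2 point at 44.3 kb are negative. That median is 0 in KYSE150 and 2.32 to 2.58 in KYSE510, so that scale lowers every KYSE510 region.

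The other 2 calls were less firm. A region inside FOSL1, 1.09 kb from its upper end (chr11:65899204-65899709), had heights of 0, 4 and 8 in KYSE150 control and no KYSE510 peak, so that it entered through KYSE150 alone, with -1.31 ± 0.42 (SE) and an adjusted limma p of 0.0403. That call was lost without KYSE150 control replicate 2 or 3, or any 1 KYSE510 control library, with adjusted p of 0.0787 to 0.148, and without the filter on presence (0.148). The HOOK2 region before JUNB (8, 6 and 9 in KYSE150 control against 9, 0 and 0) was called lower at -1.40 ± 0.36 (SE), adjusted p 0.0147, and was lost without KYSE510 control replicate 2 (0.0590) or 3 (0.0584).

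FOS, FOSB, JUN and JUND had no region called between the lines. The tallest peak near FOS was not at its promoter but 19.7 kb before the start (chr14:75258703-75259548). Its heights were 30, 27 and 37 in KYSE150 control, 41, 26 and 28 in KYSE150 silenced, 81, 63 and 57 in KYSE510 control and 67, 64 and 66 in KYSE510 silenced libraries, all at or above the 96.9th percentile. A second tall one stood 15.4 kb after the start (chr14:75293860-75294499), with 14, 21 and 25, then 25, 13 and 15 in KYSE150 and 53, 42 and 33, then 39, 34 and 49 in KYSE510. Neither lies at the start of another gene in the table. In KYSE150 the silenced and control heights overlapped at both, unlike at the FOS start.

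JUN was the reverse, with 1 dominant peak at its start and few others. Its flanks held 2 further regions with a peak in at least 3 libraries, which had 1 KYSE150 peak between them. JUNB had a peak in all 12 libraries in 1 place, 1.32 kb before the start, inside the neighbour HOOK2 (15, 8 and 10 in KYSE150 control and 19, 15 and 11 in KYSE510 control libraries). JUND shared its neighbourhood with IQCN, whose start 6.81 kb after that of JUND had heights of 9 to 14 in KYSE150 and 9 to 17 in KYSE510. FOSL1 sat among 4 tested regions at other genes' starts, and the FIBP start reached 25, 14 and 28 in KYSE150 control libraries, against 18, 11 and 19 at the FOSL1 upper-end region.

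**Figure D4:**
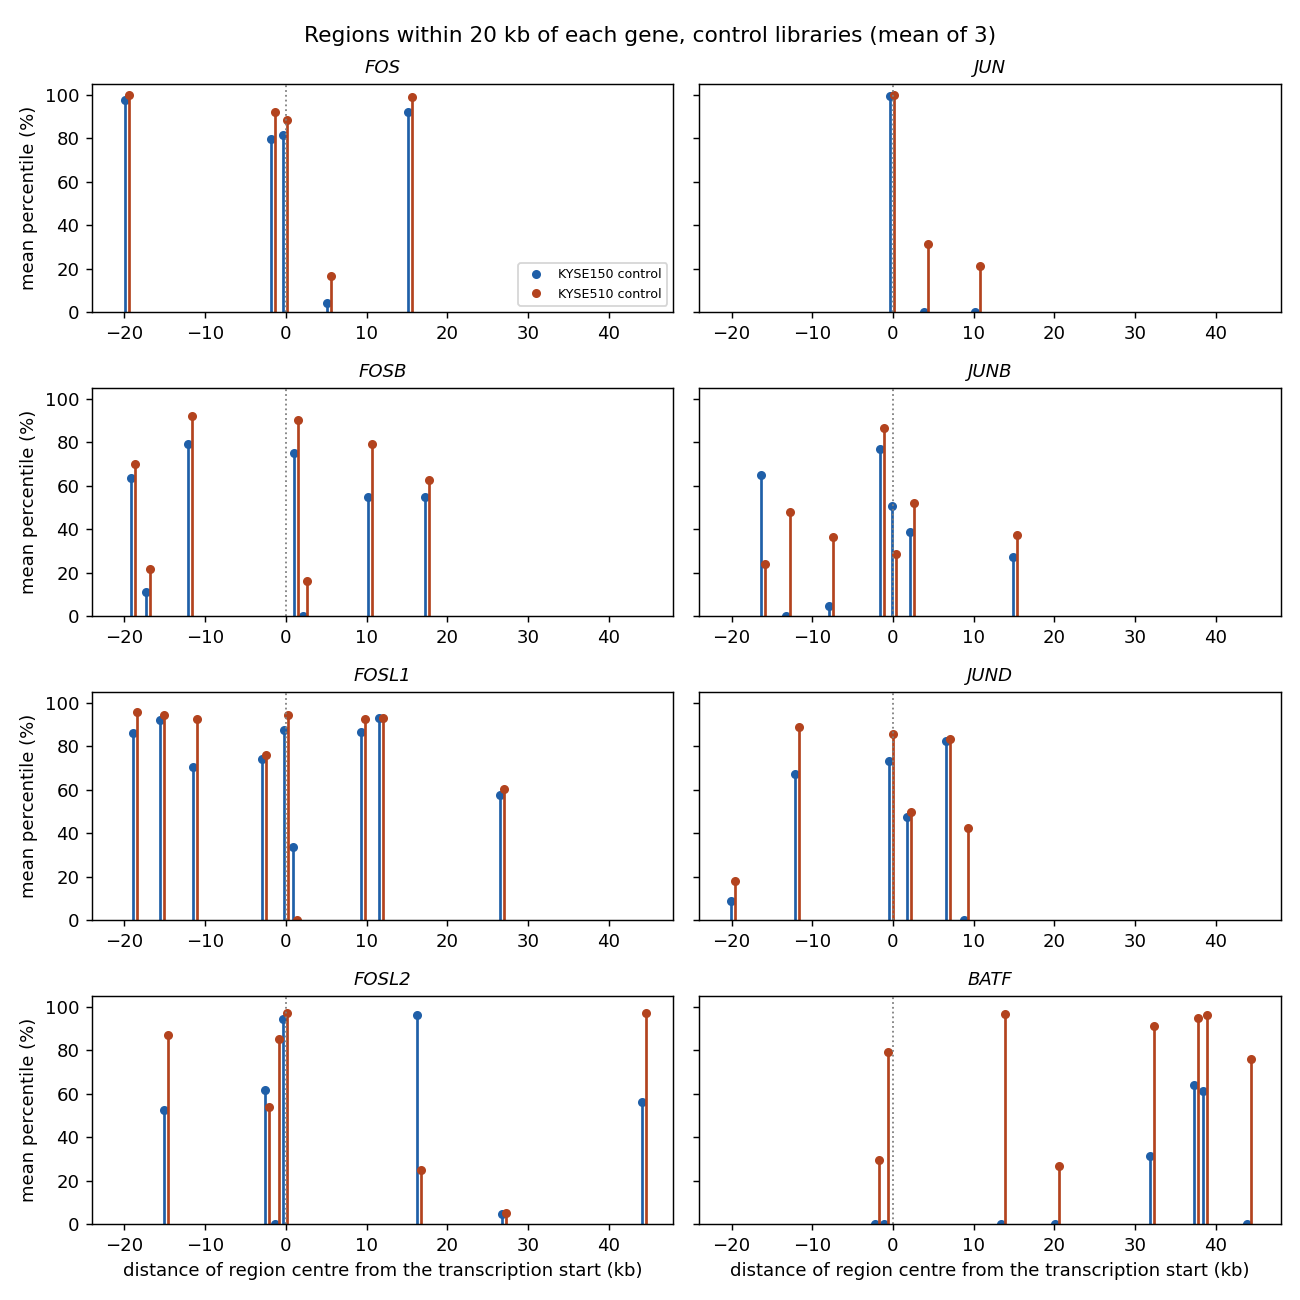
Mean percentile of each region over the 3 control libraries of KYSE150 (blue) and KYSE510 (red), against the distance of its centre from the gene's start in kb (upper end of the span for FOSL1; positive values run into the gene); 0% means no peak in any of the 3. JUN shows 1 tall region at its start, and FOS has tall regions at 19.7 kb before and 15.4 kb after the start. At BATF several regions, those at 13.6 and 44.1 kb among them, lie at 0% in KYSE150 and above 0% in KYSE510.

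**Figure D5:**
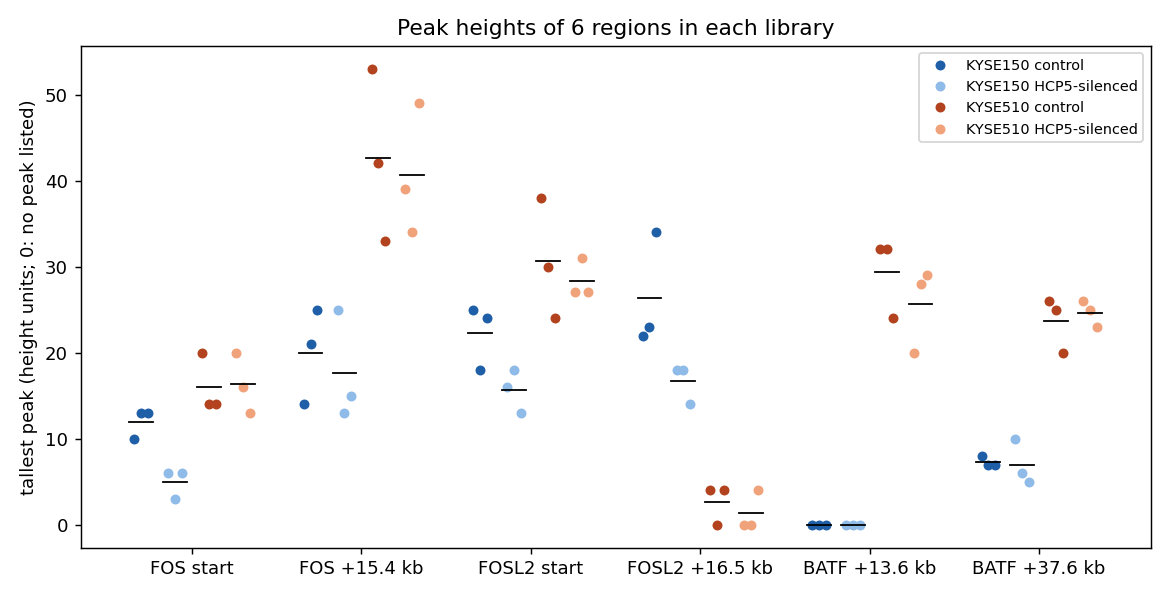
Height of the tallest peak in each library (points) with the mean of 3 libraries (bars) at 6 regions, named by gene and distance from the start; 0 means no peak listed. KYSE150 silenced libraries lie below controls at the FOS start (6, 3 and 6 against 10, 13 and 13) and at 16.5 kb in FOSL2, and BATF at 13.6 kb has peaks in KYSE510 alone. The higher KYSE510 values at 37.6 kb from BATF give a negative difference on log2 heights less the library median. That median is 0 in KYSE150 and 2.32 to 2.58 in KYSE510, so that scale lowers every KYSE510 region.

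The number of peaks within 20 kb followed the same division. Summed over the members it was 38 to 44 per library in KYSE150 and 49 to 60 in KYSE510, and the median member had 4.5 to 5.5 and 6.5 to 7.5 peaks, against 3 and 4 to 5 for the median gene. BATF had 3, 3 and 4 peaks in KYSE150 control and 9, 12 and 8 in KYSE510 control libraries, with an exact two-sided permutation p of 0.1, the smallest that 3 against 3 libraries allow. It was the only member of 8 whose control groups did not overlap, where 30.8% of all genes were higher in KYSE510 and 1.28% lower. JUN had the fewest, 1 to 2 in KYSE150 and 2 to 5 in KYSE510, and FOSL1 had 8 to 10 and 7 to 9.

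After silencing, no member's peak number moved apart from the control libraries in either line. Among all genes, 0.968% were higher and 2.81% lower without overlap in KYSE150, and 3.15% and 1.48% in KYSE510. JUNB came nearest, with 7, 7 and 6 peaks in control against 6, 4 and 3 in silenced libraries of KYSE150, and 6, 7 and 6 against 9, 8 and 7 in KYSE510. Both JUNB comparisons had an exact permutation p of 0.2, and the exact p of the other members was 0.4 or higher.

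Partner, upstream and target genes were read at their promoters in 4 lists. None of their genes was called after silencing in either line. The smallest p in KYSE150 among them was that of KLF10, an immediate early transcription factor (-1.52, adjusted limma p 0.809), followed by KLF6 (0.46, adjusted p 0.991). In KYSE510, ELK1, a factor that works with SRF at the FOS promoter, was among those with the smallest p (-0.44, adjusted limma p 0.859).

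Between the lines, 2 of 13 tested related bZIP genes were higher in KYSE510 and 0 lower. Of upstream kinases and factors 1 of 13 was higher and 1 lower, and of 16 other immediate early genes 0 were higher and 2 lower. Of 16 tested genes known as AP-1 targets in epithelia, 6 were higher and 2 lower, with a median difference of 0.63 against -0.05 over all 12850 promoters, of which 19.2% were called. Among those with the smallest p were MMP1, a collagenase (1.73 ± 0.23 SE, adjusted limma p 6.33e-05), KLF6, an early response zinc finger factor (-1.62 ± 0.26), CCND1, the G1 cyclin D1 (1.61 ± 0.32), and HMGA2, a chromatin architectural protein (-1.08 ± 0.25). MMP1 promoters averaged the 4.48th percentile in KYSE150 and the 91.5th in KYSE510 control libraries, and KLF6 promoters the 85.8th and the 36.7th. A peak of height 3 had a percentile of 13.1 to 13.8 in the KYSE150 control libraries. The KYSE150 mean of MMP1 is below that, so it includes libraries without a listed peak, set to 0.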

How the data were processed

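Tables of ATAC-seq peaks, 1 per library, were used as deposited. Per the submitters' processing notes the tools were Trimmomatic 0.36, Bowtie2 2.2.6, Picard 2.8.2, MACS2 2.1.1 and bedtools 2.25.0, with the build GRCh38. Per the file headers each peak has a pileup, used here as its height, which is a signal that the authors did not normalise between libraries as far as the tables show. The deposited fold enrichment is a ratio of height to local background, each with 1 added, from which the background was solved. Per the file headers a p-value and an FDR are given too, and no deposited p-value exceeded 0.00987. Starts and strands came from RefSeq promoter entries (15842 of 20037 protein-coding genes), and elsewhere both ends of the span were used.

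The fits used limma 3.58.1 in R 4.3.3 (lmFit, eBayes) on normal scores of within-library ranks over all promoters or all merged regions with a peak in at least 3 libraries, with Benjamini-Hochberg adjustment over all of them. The silencing fits used the 6 libraries of a line, and the comparisons of lines and of responses used all 12. Peak numbers were compared by exact two-sided permutation. Python 3.11.15, numpy 2.4.6, pandas 2.3.3 and scipy 1.17.1 did the rest. The fits were tested on simulated data, where the promoter fits missed the small planted changes and the region fits missed nearly all, the large ones included.

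Named were all members, their called, start and tallest regions, and of each list at most 5 called genes by smallest p, or 2 where none was called; a few genes that this rule or the marker list names are not reported here. The members and lists were chosen with earlier results of these data known. Alternatives covered the height minimum, FDR, windows, filter, scale, fold enrichment, replicate block and leaving out each library. Treating the upper end of FOSL1 as its start was added after seeing the data. Replicate numbers were not taken as pairs, and no pair of replicate libraries shared more than 0.0271% of identical peaks.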

Additional observations from a re-analysis of the deposited data

How the results depend on the processing

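Of 162 alternative values of the main counts, 146 were equal or stayed within 1.5 times, and no alternative called a member promoter or region after silencing. Most of the 146 set a count of 0 beside a count of 0, so the share says little on stability. Between the lines, 0 member promoters were called with a peak required in every library (BATF then drops out) and 0 with the 500 bp window, against 1 in the report. Of regions between the lines, 11 in the report, 35 were called (3 higher, 32 lower) on log2 heights less the library median, 6 with a peak required in every library, 6 within 10 kb and 22 within 50 kb; leaving out a library gave 10 to 11. On the log2 scale 4 region differences turned negative: FOSL2 at 44.3 kb (-0.31), and BATF at 32.1 kb (-0.42), 37.6 kb (-0.85, adjusted limma p 0.0293) and 38.7 kb (-0.58). That scale subtracts a median of 0 in KYSE150 and of 2.32 to 2.58 in KYSE510, which lowers every KYSE510 region. FOSB turned to 0.28 with the 2 kb promoter window. The test of the difference in response called 0 to 1 regions when a library was left out. The call at the FOSL2 region just before the start rested on peaks in KYSE510 control libraries alone, so its sign was fixed by the filter. For peak numbers, 0 members were apart in the report in either line. Leaving out a library gave 0 to 1 in KYSE150 (1 without control replicate 2 or 3 or silenced replicate 1) and 0 to 2 in KYSE510 (1 without control replicate 2 or 3, 2 without silenced replicate 3), and the 50 kb window gave 1 in KYSE510. With the replicate block 1 member differed in the same direction in all 3 pairs in each line, and the block changed no limma call at the members (1 promoter and 11 regions between the lines). Deviations of same-numbered libraries correlated at 0.000172 to 0.0362 over promoters and 0.0216 to 0.124 over regions. Depth is unknown, heights near the minimum of 3 decide whether a peak is listed, and a missing peak has no height, so regions at 0 in part of a group give the least certain differences.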
